A study of Homo sapiens with 18 samples.

Results

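The interferon-stimulated genes and RNA sensors described here are 38 genes of the 26485 in each table of normalized read counts from PANC-1 cells. They were chosen by symbol, with RIG-I looked up under its older symbol DDX58, and all 38 were found in both tables. They comprise the sensors of double-stranded RNA and their adaptors (DDX58, IFIH1, DHX58, TLR3, MAVS, TRIM25), the transcription factors of the response (STAT2, IRF1, IRF3, IRF7, IRF9), the effectors with antiviral activity, and the genes of ISG15 and ADP-ribose modification (ISG15, USP18, PARP9, DTX3L, PARP14). A gene with a mean under 10 normalized counts over the 9 libraries of a table was taken as too low to judge there. By this measure 26 members were tested in both tables, 3 in 1 table only, and 9 in neither.

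PANC-1 is an established human line from a pancreatic ductal carcinoma, and only this line was sequenced. RNA was taken after 72 h in every group, and each of the 6 groups had 3 libraries. In the libraries labelled run 1 the cells were transfected with a control siRNA or with PKR siRNA 1 or PKR siRNA 2, both against PKR. The control cells had thus also received a transfected siRNA. In those labelled run 2 the cells received the vehicle DMSO, 400 nM C16 or 800 nM C16. C16 is an inhibitor of the kinase PKR and was dissolved in DMSO. The study asked which transcripts change when PKR is lowered or inhibited. The labels do not say what a run stands for. The authors normalized the runs in separate tables, so the run cannot be told apart from the type of treatment. Every test was made within a table.

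Cells detect double-stranded RNA, a sign of viral replication, with RIG-I and MDA5 (encoded by IFIH1) in the cytosol and TLR3 in endosomes. The cytosolic sensors pass the signal to MAVS on mitochondria, the kinases downstream activate IRF3 and IRF7, and the interferon that follows acts through a complex that holds STAT2 and IRF9 on a DNA element called the interferon-stimulated response element (ISRE). PKR itself binds double-stranded RNA, halts translation by phosphorylating eIF2 alpha, and its gene EIF2AK2 is interferon-inducible.

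EIF2AK2 fell from 97.4 ± 5.21 normalized counts (mean ± SD, n = 3) in the control siRNA libraries to 11.1 ± 2.19 after PKR siRNA 1 and 8.65 ± 0.726 after PKR siRNA 2, which checks the siRNA labels. The libraries held 1512940 to 1873906 reads on genes in the siRNA run and 894145 to 1474308 in the C16 run, so that a member at 10 normalized counts rests on about as many reads per library. The keratin transcripts KRT8 and KRT18 lay between 977 and 5105 normalized counts in all 18 libraries, whereas the epithelial markers EPCAM and CDH1 lay between 9.07 and 120 and KRT7 between 0.761 and 20.5. The leukocyte genes PTPRC and CD3E and the red blood cell gene HBB had 0 reads in every library, which allows up to 3 reads in each. Other markers of these cells were low but not at 0 throughout, with LYZ at up to 4.82, CD14 at up to 4.86 and HBA1 at up to 3.22 normalized counts, and the endothelial genes PECAM1 and VWF reached 0.965 and 0.995. The labels number the replicates without saying that they came from separate cultures, so the tests measure the spread between these libraries, which may be technical.

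Because interferon acts on these genes through their promoters, the promoters were searched for the ISRE core GAAANNGAAA on both strands. RefSeq promoters (GRCh38.p14, reaching from upstream of the RefSeq start site to shortly after it) were matched for 30 members. The core was present in 19 of them (63.3%), compared with 996 of 27305 promoters in all (3.65%). The GAS element TTCNNNGAA, a further interferon-responsive element, was present in 11 of the 30 (36.7%) and in 2152 of all promoters (7.88%). A match of letters is not a shown binding site. The stretches below hold every core match of 10 members that passed the test in at least 1 comparison with a control, and are shown so that the elements can be compared with the changes described later. They are chr10:89392482-89392554 (IFIT1), chr10:89332410-89332512 (IFIT3) and chr10:89414498-89414598 (IFIT5) on the plus strand of chromosome 10, chr12:112938306-112938496 (OAS3, plus strand), chr11:313975-314068 (IFITM1, plus strand), chr11:320861-320937 (IFITM3, minus strand), chr1:27672251-27672373 (IFI6, minus strand), chr15:88638922-88638981 (ISG20, plus strand), chr7:93118081-93118140 (SAMD9, minus strand) and chr3:122564307-122564366 (DTX3L, plus strand). They are written 5′ to 3′ along the gene, with the core in capitals; where the core lies on the opposite strand its reverse complement is in capitals.
IFIT1: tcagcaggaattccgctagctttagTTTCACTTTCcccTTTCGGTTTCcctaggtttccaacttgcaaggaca
IFIT3: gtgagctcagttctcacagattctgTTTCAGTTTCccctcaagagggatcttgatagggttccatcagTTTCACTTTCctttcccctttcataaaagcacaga
IFIT5: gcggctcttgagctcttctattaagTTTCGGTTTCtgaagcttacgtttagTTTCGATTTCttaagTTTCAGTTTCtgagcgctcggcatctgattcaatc
OAS3: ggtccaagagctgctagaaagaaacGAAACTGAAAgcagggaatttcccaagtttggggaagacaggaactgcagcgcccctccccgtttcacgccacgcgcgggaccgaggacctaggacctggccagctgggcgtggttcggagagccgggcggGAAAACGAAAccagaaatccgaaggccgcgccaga
IFITM1: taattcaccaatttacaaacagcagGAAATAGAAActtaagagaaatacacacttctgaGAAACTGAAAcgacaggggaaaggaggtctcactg
IFITM3: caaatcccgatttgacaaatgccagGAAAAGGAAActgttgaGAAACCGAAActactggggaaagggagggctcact
IFI6: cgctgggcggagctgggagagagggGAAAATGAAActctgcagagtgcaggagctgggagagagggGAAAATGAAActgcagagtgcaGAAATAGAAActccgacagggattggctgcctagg
ISG20: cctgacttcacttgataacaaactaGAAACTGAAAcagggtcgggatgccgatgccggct
SAMD9: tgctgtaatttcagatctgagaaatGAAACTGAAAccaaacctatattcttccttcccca
DTX3L: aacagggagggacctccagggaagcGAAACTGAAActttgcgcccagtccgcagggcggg

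The IFIT matches all lay on the opposite strand and those of IFITM1, IFITM3, IFI6 and OAS3 on the gene's own strand. IFIT5 and IFI6 held 3 cores each, as did IFIH1, whose stretch is not shown. The core of DTX3L at chr3:122564332-122564341 is also the only core of PARP9, which is read from the other strand.

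**Figure D1:**
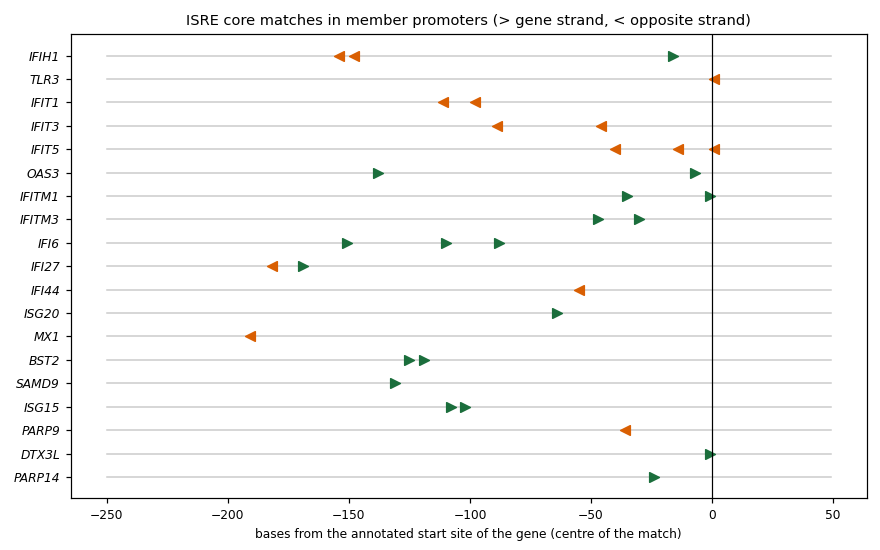
Matches to the ISRE core in the 19 member promoters that hold one. Each is placed by the distance in bases from the RefSeq start site to the centre of the match. Triangles pointing right lie on the gene's strand and those pointing left on the opposite strand. Of the 33 matches, none lies more than 200 bases before the RefSeq start and most genes hold 1 or 2. For some genes, among them IFIT3, ISG20 and MX1, that start lies inside the gene as annotated for the counts.

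Levels of the members differed widely. Scaled to the exon length of each gene and to the same total in each library (transcripts per 1000000), IFITM3, which blocks the fusion of viral envelopes with endosomes, was the highest in both tables with 484 among siRNA libraries and 510.4 among C16 libraries. ADAR, the enzyme that edits adenosines in double-stranded RNA, followed in the siRNA table at 119 and was at 99.8 in the C16 table. The ubiquitin-like modifier ISG15 was at 89.5 and 125, IFITM2 at 74.7 and 119, and the ubiquitin ligase TRIM25 at 64.1 and 108. The sensor transcripts were lower, with DDX58 at 22.0 and 26.2 and IFIH1 at 6.95 and 12.6. These levels come from different runs and are given side by side without a test.

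Members too low to judge in both tables were DHX58, TLR3, OAS1, OAS2, IFI27, IFI44, MX1, BST2 and XAF1. TLR3 had 0 reads in all siRNA libraries and 1 read in the C16 libraries together, and IFI27 had 2 and 5 reads. DHX58, which encodes the sensor LGP2, had 40 reads over the siRNA libraries and 38 over the C16 libraries. MX1, a GTPase that traps viral nucleocapsids, had 24 and 49 reads. BST2, the tether that holds budding virions, had 12 and 25 reads. The synthetase genes OAS1 and OAS2 had 11 to 15 reads in each table, and IFI44 and the apoptosis factor XAF1 had 9 to 17. OASL and the ISG15 protease USP18 were too low in the siRNA table, at means of 6.70 and 9.63 normalized counts, and ISG20 in the C16 table at 8.23. The members just over the minimum were OASL at 10.0, SAMD9 at 11.1 and IRF9 at 11.2 in the C16 table, and IFI6 at 12.1 in the siRNA table. OASL and IRF7 passed the minimum in the C16 table only because of the DMSO libraries, so that for them a difference from DMSO was built into the filter.

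In cells treated with 800 nM C16, the antiviral effectors IFIT1, IFIT2, IFIT3, IFITM1, IFITM2, IFITM3, IFI6, IFI35, SAMD9 and the adaptor MAVS fell, while TRIM25 and OAS3 rose. Of 28 members tested, 14 were lower than in DMSO (50%) and 2 were higher (7.14%), where 14.1% and 11.6% of all 9963 genes tested were lower and higher. Without OASL and IRF7 the count was 12 lower of 26 (46.2%), with a median log2 fold change of -0.48 and 24 negative values. The median log2 fold change of the members was -0.58 and that of all genes 0.00; 26 of the 28 members had a negative value, while 50.2% of all genes had a positive one. With 400 nM C16, 5 members were lower (17.9%) and 3 higher (10.7%), where 5.45% of all genes were lower and 7.08% higher, and the median of the members was -0.18. Without OASL and IRF7, 4 of 26 were lower with 400 nM (15.4%) and the median was -0.11. Between the doses, 7 members were lower at 800 nM than at 400 nM (25%), where 3.95% of all genes were lower. OASL is among the 7, although its means of 6.56 at 400 nM and 1.94 at 800 nM were both under the minimum. None of the 28 was higher with limma, edgeR or DESeq2, nor at an unadjusted p under 0.05, and 1.13% of all genes were higher. A gene was called where limma gave a Benjamini-Hochberg adjusted p under 0.05 over all genes tested and a fold change over 1.5. Fold changes are on the scale of log2 (normalized count + 1), which understates the change of low genes, and in bulk RNA fewer cells and less RNA per cell cannot be told apart.

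After PKR siRNA 1, 7 of 27 members tested were lower than with control siRNA (25.9%) and 2 were higher (7.41%), where 12.6% and 8.53% of all 10593 genes were lower and higher. After PKR siRNA 2, 6 were lower (22.2%) and 2 higher (7.41%), where 12.8% of all genes were lower and 10.8% higher. The median log2 fold change of the members was -0.30 after PKR siRNA 1 and -0.17 after PKR siRNA 2, and that of all genes -0.01 in both. Between the siRNAs, 7 members were higher after PKR siRNA 2 than after PKR siRNA 1 (25.9%) and 5 lower (18.5%), where 16.4% of all genes were higher and 15.3% lower. Both siRNA comparisons share the control libraries, and both C16 comparisons share the DMSO libraries. In all, 22 of the 29 members tested in at least 1 table were called in at least 1 of the 4 comparisons with a control (75.9%), as were 5320 of all 10735 genes tested (49.6%). OASL is among the 22 only through its calls against DMSO, where the filter had built in a difference.

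**Figure D2:**
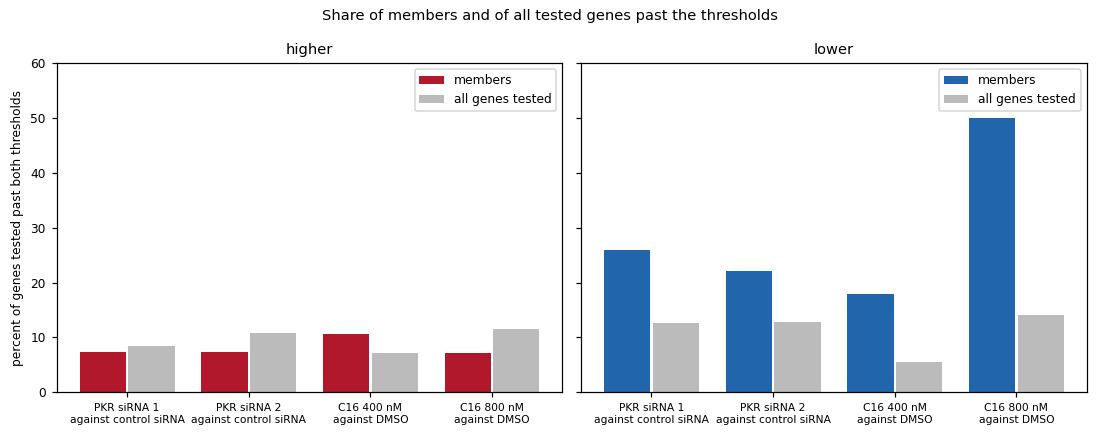
Percent of tested members (coloured bars) and of all tested genes (grey bars) that were higher (left) or lower (right) than their control, for the 4 treatments; the vertical axis starts at 0. The share of members lower with 800 nM C16 was 50% (46.2% without OASL and IRF7) against 14.1% of all genes. No share of members higher was above 10.7%.

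**Figure D3:**
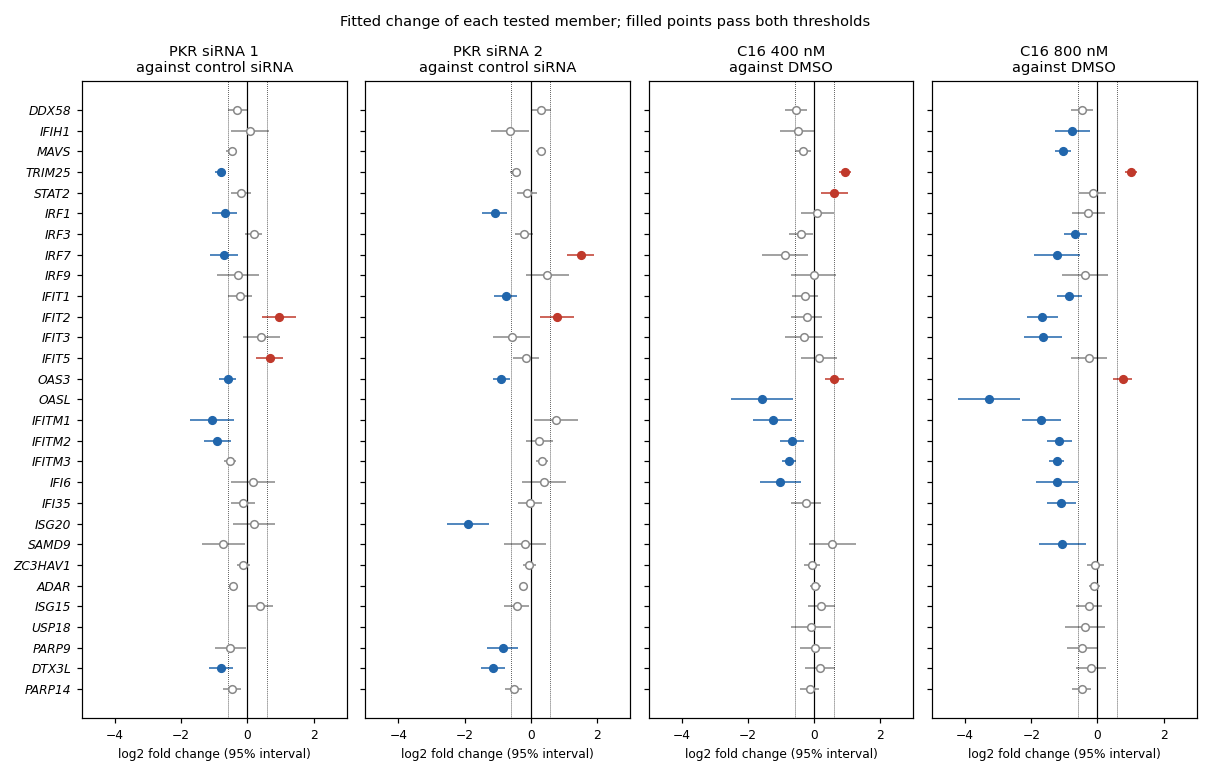
Log2 fold change against the control with its 95% confidence interval for each member tested, 1 panel per treatment; filled points passed the adjusted p of 0.05 and the fold change of 1.5, and dotted lines mark 1.5-fold. With 800 nM C16 most points lie left of 0, with TRIM25 and OAS3 the filled points to the right.

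Among the sensors, DDX58 was called in none of the 4 comparisons with a control. Its mean was 69.7 ± 5.63 normalized counts in DMSO, 47.8 ± 9.93 at 400 nM C16 and 49.9 ± 2.26 at 800 nM, and the log2 fold changes (± SE) of -0.55 ± 0.16 and -0.47 ± 0.16 stayed under 1.5-fold, with adjusted p = 0.0076 and 0.0149. At 400 nM the fall passed both thresholds without DMSO replicate 1 (-0.61), 400 nM replicate 1 (-0.60) or 400 nM replicate 3 (-0.68). In the siRNA table DDX58 was 69.2 ± 6.67 with control siRNA, 56.1 ± 7.79 after PKR siRNA 1 and 86.5 ± 4.59 after PKR siRNA 2. The siRNAs differed from each other, by 0.62 ± 0.14 on the log2 scale (adjusted p = 0.000133), although without PKR siRNA 1 replicate 2 this was 0.53, under 1.5-fold.

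IFIH1, the sensor of long double-stranded RNA, had 25.3, 28.6 and 25.9 normalized counts in the DMSO libraries, 19.1, 19.6 and 17.0 at 400 nM C16 and 12.1, 23.2 and 12.4 at 800 nM. The 800 nM libraries all lay under DMSO, but replicate 2 was close to it. The level at 800 nM was 0.588 times that in DMSO (log2 fold change -0.77 ± 0.26, adjusted p = 0.0146). This call was lost without DMSO replicate 2 (-0.72), without 800 nM replicate 1 (-0.61) or replicate 3 (-0.63), and with DESeq2 (adjusted p = 0.0795). IFIH1 was also lower after PKR siRNA 2 (11.8 ± 2.27) than after PKR siRNA 1 (20.1 ± 4.85),, at -0.71 ± 0.28 (adjusted p = 0.0265). That difference was not called without PKR siRNA 1 replicate 1 (-0.54) or PKR siRNA 2 replicate 3 (-0.58), nor with DESeq2 (adjusted p = 0.109).

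MAVS, the mitochondrial adaptor of both cytosolic sensors, had 165, 155 and 177 normalized counts in DMSO, 147, 126 and 122 at 400 nM C16 and 89.8, 67.0 and 84.9 at 800 nM. The 3 groups did not overlap and decreased with dose. At 800 nM MAVS was 0.486 times the DMSO level (-1.04 ± 0.12, adjusted p = 7.05e-11), and it was lower at 800 than at 400 nM, at -0.71 ± 0.12 (adjusted p = 1.07e-05), or -0.58 and under 1.5-fold without 800 nM replicate 2. At 400 nM the difference from DMSO lay within 1.5-fold (-0.33 ± 0.12). In the siRNA table MAVS was 311 ± 23.1 with control siRNA, 223 ± 15.8 after PKR siRNA 1 and 383 ± 24.8 after PKR siRNA 2. Each siRNA differed from the control by less than 1.5-fold, in opposite directions (-0.48 ± 0.08 and 0.30 ± 0.08), and from each other by 0.78 ± 0.08 (adjusted p = 3.13e-14).

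TRIM25, the ligase that acts on RIG-I and on ISG15 targets, rose with C16. It had 156, 165 and 184 normalized counts in DMSO, 317, 338 and 311 at 400 nM and 349, 342 and 331 at 800 nM. All treated libraries lay above all DMSO libraries, and the doses overlapped. The level was 1.91 times DMSO at 400 nM (0.93 ± 0.09, adjusted p = 1.77e-13) and 2.02 times at 800 nM (1.02 ± 0.09, adjusted p = 3.27e-15). The difference between doses lay within 1.5-fold, with a 95% interval of -0.09 to 0.25. With the siRNAs TRIM25 was instead below the control, which had 326, 317 and 329. PKR siRNA 1 gave 169, 182 and 204 and PKR siRNA 2 gave 241, 236 and 229, with no overlap between the 3 groups. The fall passed the threshold after PKR siRNA 1 (-0.81 ± 0.08, adjusted p = 1.59e-13), while PKR siRNA 2 was under 1.5-fold (-0.46 ± 0.08, adjusted p = 3.07e-06).

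Of the transcription factors, IRF7, the factor that amplifies interferon production, differed most between the siRNAs. It had 23.6, 29.0 and 23.7 normalized counts with control siRNA, 16.7, 15.4 and 13.5 after PKR siRNA 1 and 79.6, 68.6 and 73.4 after PKR siRNA 2. The PKR siRNA 1 libraries all lay below the control and the PKR siRNA 2 libraries all far above it. IRF7 was 2.84 times the control after PKR siRNA 2 (1.5 ± 0.21, adjusted p = 3.44e-09) and 0.613 times after PKR siRNA 1 (-0.71 ± 0.21, adjusted p = 0.00372; 0.0609 with DESeq2). The siRNAs differed by 2.21 ± 0.21 (adjusted p = 1.93e-15). With C16, IRF7 had 22.3, 15.2 and 19.8 in DMSO, 10.6, 10.4 and 8.51 at 400 nM and 6.05, 14.6 and 4.77 at 800 nM. All treated libraries were below DMSO, with 800 nM replicate 2 nearest to it. IRF7 passed the minimum here only through the DMSO libraries, so its tests against DMSO are no evidence of a fall. The value at 800 nM passed both thresholds (-1.21 ± 0.35, adjusted p = 0.00328). The value at 400 nM just missed (-0.88 ± 0.35, adjusted p = 0.0506) and passed with edgeR (adjusted p = 0.0184).

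IRF1, a factor that induces antiviral genes without IRF3, was lower with both siRNAs. Its libraries had 55.5, 65.5 and 61.6 normalized counts with control siRNA, 35.5, 37.2 and 39.6 after PKR siRNA 1 and 32.8, 32.2 and 20.7 after PKR siRNA 2. The 3 groups did not overlap. IRF1 was 0.622 times the control after PKR siRNA 1 (-0.68 ± 0.19, adjusted p = 0.00183) and 0.469 times after PKR siRNA 2 (-1.09 ± 0.19, adjusted p = 1.04e-06). With C16 it was not called, at 22.1 ± 2.15 in DMSO, 23.7 ± 3.22 at 400 nM and 18.3 ± 3.28 at 800 nM.

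IRF3, a factor activated by MAVS signalling, had 59.3, 61 and 69.3 normalized counts in DMSO, 62.7, 45.0 and 38.3 at 400 nM C16 and 47.4, 30.5 and 42.0 at 800 nM. The 800 nM libraries lay under DMSO, and those at 400 nM overlapped both groups. The fall at 800 nM to 0.630 times DMSO (-0.67 ± 0.18, adjusted p = 0.00172) was -0.49 and under 1.5-fold without 800 nM replicate 2. IRF3 shares 19.5% of its exon bases with BCL2L12 on the opposite strand, so its counts are uncertain if strand was not used. With the siRNAs the 95% intervals lay within 1.5-fold (0.18 ± 0.13 and -0.20 ± 0.13).

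STAT2, a part of the interferon-activated complex, was higher at 400 nM C16 alone. It had 27.2, 28.6 and 32.7 normalized counts in DMSO, 52.1, 41.5 and 43.6 at 400 nM and 22.2, 32.9 and 25.8 at 800 nM. The 400 nM libraries lay above both other groups, which overlapped. The rise at 400 nM (0.61 ± 0.20, adjusted p = 0.0193) was just past 1.5-fold and was lost without DMSO replicate 1 (0.56), DMSO replicate 2 (0.59) or 400 nM replicate 1 (0.52), with a pseudocount of 5 (0.55) and with DESeq2 (adjusted p = 0.104). STAT2 was lower at 800 than at 400 nM, at -0.75 ± 0.20 (adjusted p = 0.00767), a call lost without 400 nM replicate 1 (-0.66), without 800 nM replicate 1 (-0.63) and with DESeq2 (adjusted p = 0.0906). With both siRNAs its interval lay within 1.5-fold. IRF9, the DNA-binding part of that complex, was not called against a control, at 12.7 ± 3.80, 10.3 ± 3.48 and 18.1 ± 3.55 normalized counts in the control and after PKR siRNA 1 and then PKR siRNA 2 and 9.09 to 12.5 on average in the C16 table. Its difference between the siRNAs (0.79 ± 0.32, adjusted p = 0.0305) was lost without PKR siRNA 1 replicate 1 (0.53), PKR siRNA 2 replicate 1 (0.68) or replicate 2 (0.74), and with DESeq2 (adjusted p = 0.122).

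The IFIT genes encode proteins that bind viral RNA or block its translation, and they lie side by side on chromosome 10. With 800 nM C16, 3 of the 4 fell. IFIT2 had 52.5, 33.3 and 45.7 normalized counts in DMSO, 39.4, 30 and 41.5 at 400 nM and 12.1, 18.3 and 9.54 at 800 nM. The DMSO and 400 nM libraries overlapped, and every 800 nM library lay well below both. IFIT2 was 0.314 times DMSO at 800 nM (-1.67 ± 0.23, adjusted p = 2.48e-08) and lower than at 400 nM, at -1.44 ± 0.23 (adjusted p = 7.07e-06). IFIT3 had 30.1, 31.4 and 26.7 in DMSO, 24.5, 21.9 and 24.5 at 400 nM and 4.03, 14.6 and 10.5 at 800 nM. The groups did not overlap, and 800 nM replicate 1 was the lowest. IFIT3 was 0.319 times DMSO at 800 nM (-1.65 ± 0.29, adjusted p = 3.91e-06) and lower between doses at -1.35 ± 0.29 (adjusted p = 0.00073). IFIT1 had 52.5, 38.1 and 51.8 in DMSO, 36.2, 36.9 and 42.6 at 400 nM and 24.2, 24.4 and 28.6 at 800 nM. The 400 nM libraries overlapped DMSO and the 800 nM libraries lay below both. Its fall at 800 nM to 0.556 times DMSO was smaller (-0.85 ± 0.19, adjusted p = 0.000285). IFIT5, the neighbour of IFIT1 with 3 ISRE cores, was not called, at 18.2 ± 2.68 in DMSO and 15.2 ± 1.85 at 800 nM, with a 95% interval of -0.79 to 0.30.

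With the siRNAs the IFIT genes were called in both directions. IFIT1 had 48.3, 50.5 and 66.4 normalized counts with control siRNA, 47.8, 45.4 and 46.3 after PKR siRNA 1 and 36.8, 27.9 and 31.0 after PKR siRNA 2. The groups did not overlap. IFIT1 fell after PKR siRNA 2 (-0.76 ± 0.18, adjusted p = 0.000251), and the difference between the siRNAs was under 1.5-fold (-0.54 ± 0.18, adjusted p = 0.00805). IFIT2 had 22.6, 17.2 and 8.53 with control siRNA, 36.7, 35.4 and 21.2 after PKR siRNA 1 and 27.9, 25.7 and 26.3 after PKR siRNA 2. Control replicate 3 was far below the other controls, and PKR siRNA 1 replicate 3 overlapped the control. IFIT2 was called higher after PKR siRNA 1 (0.97 ± 0.26, adjusted p = 0.00138) and PKR siRNA 2 (0.79 ± 0.26, adjusted p = 0.00874), but without control replicate 3 the values were 0.59 (adjusted p = 0.0617) and 0.42 (adjusted p = 0.2), and DESeq2 did not call the second (adjusted p = 0.0827). IFIT5 had 25.7, 33.3 and 30.3 with control siRNA, 47.8, 42.6 and 53.1 after PKR siRNA 1 and 23.9, 27.9 and 28.2 after PKR siRNA 2. PKR siRNA 1 lay above both other groups. The rise was 0.67 ± 0.20 (adjusted p = 0.00433), or 0.57 and under 1.5-fold without control replicate 1, and PKR siRNA 2 was lower than PKR siRNA 1, at -0.82 ± 0.20 (adjusted p = 0.000327). IFIT3 was not called against the control, at 18.8 ± 3.27 with control siRNA, 25.4 ± 2.75 after PKR siRNA 1 and 12.9 ± 5.21 after PKR siRNA 2, and was lower after PKR siRNA 2 than after PKR siRNA 1, at -1.0 ± 0.28 (adjusted p = 0.00159).

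**Figure D4:**
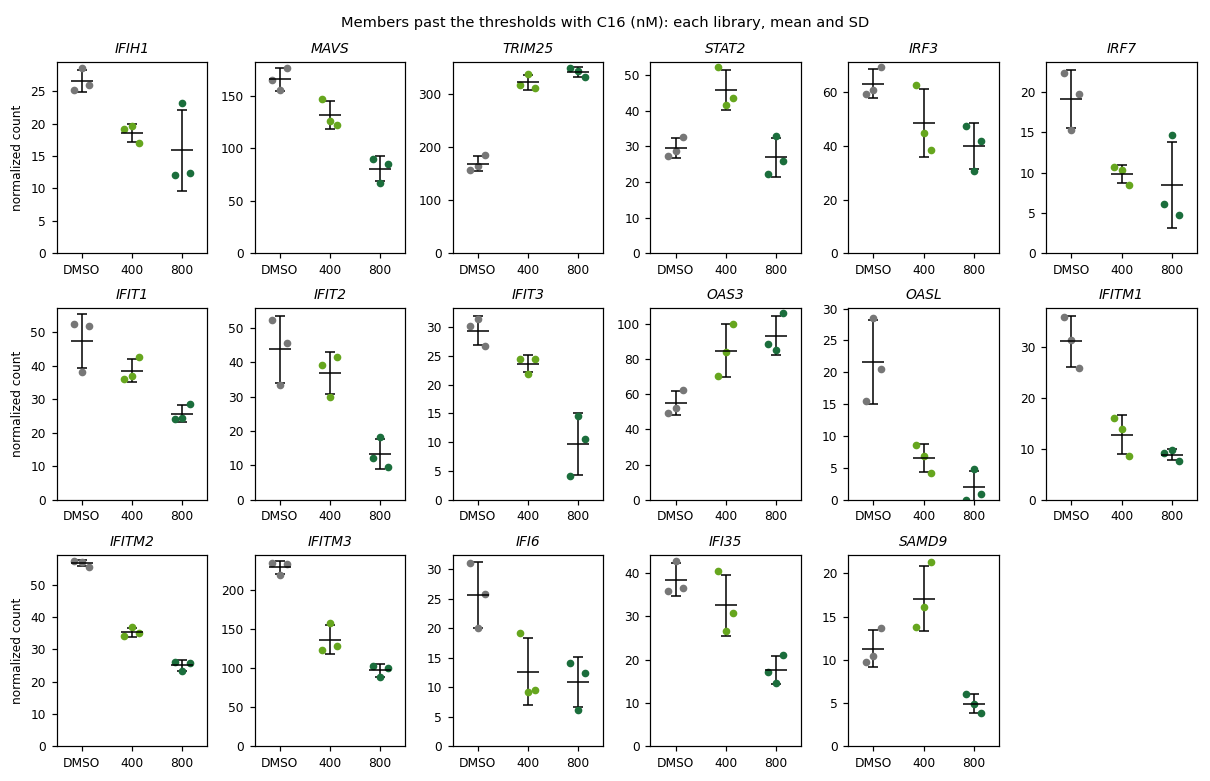
Normalized counts of each library (points) for the 17 members called with C16 at 400 nM or 800 nM against DMSO, with the mean and SD of the 3 libraries (bars) and a vertical axis from 0 in each panel. MAVS and IFITM3 descend from DMSO to 800 nM without overlap, and TRIM25 and OAS3 are the panels where both doses lie above DMSO. OASL and IRF7 passed the minimum only through the DMSO libraries.

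The IFITM genes, whose products keep enveloped viruses from fusing with the cell membrane, all fell at both C16 doses. IFITM3 had 234, 218 and 232 normalized counts in DMSO, 122, 157 and 128 at 400 nM and 103, 87.7 and 99.2 at 800 nM. The groups did not overlap. It was 0.593 times DMSO at 400 nM (-0.75 ± 0.11, adjusted p = 1.26e-07) and 0.425 times at 800 nM (-1.23 ± 0.11, adjusted p = 1.28e-14). IFITM2 had 57.3, 57.1 and 55.6 in DMSO, 34.0, 36.9 and 35.1 at 400 nM and 26.2, 23.2 and 25.8 at 800 nM. It also descended without overlap, to 0.630 times (-0.67 ± 0.19, adjusted p = 0.00522) and 0.451 times DMSO (-1.15 ± 0.19, adjusted p = 8.7e-07). IFITM1 had 35.9, 31.4 and 25.9 in DMSO, 16.0, 13.8 and 8.51 at 400 nM and 9.08, 9.75 and 7.63 at 800 nM. Both doses lay below DMSO and overlapped each other, at 0.420 times (-1.25 ± 0.29, adjusted p = 0.000827) and 0.307 times DMSO (-1.70 ± 0.29, adjusted p = 2.82e-06). The differences between doses did not pass both thresholds, at -0.45 ± 0.29, -0.48 ± 0.19 and -0.48 ± 0.11 for IFITM1, IFITM2 and IFITM3. The 3 genes are separated by 4401 to 10263 bases on chromosome 11 and are related in sequence. Reads may have been split between them, so their separate values are uncertain.

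In the siRNA table all 3 IFITM genes were higher after PKR siRNA 2 than after PKR siRNA 1, and IFITM1 and IFITM2 fell after PKR siRNA 1 against the control. IFITM1 had 13.3, 16.1 and 11.4 normalized counts with control siRNA, 11.1, 4.54 and 3.86 after PKR siRNA 1 and 24.9, 19.3 and 27.3 after PKR siRNA 2. Replicate 1 of PKR siRNA 1 lay close to the control and the others far below. The fall after PKR siRNA 1 was called (-1.07 ± 0.33, adjusted p = 0.00547; 0.0721 with DESeq2), PKR siRNA 2 just missed the threshold (0.76 ± 0.33, adjusted p = 0.0501; 0.00921 with edgeR), and the siRNAs differed by 1.84 ± 0.33 (adjusted p = 1.81e-06). IFITM2 had 39.0, 47.3 and 35.1 with control siRNA, 18.9, 29.0 and 16.4 after PKR siRNA 1 and 49.7, 44.0 and 51.7 after PKR siRNA 2. PKR siRNA 1 lay below the control and PKR siRNA 2 overlapped it. The fall was called after PKR siRNA 1 (-0.92 ± 0.20, adjusted p = 0.000134), and the siRNAs differed by 1.18 ± 0.20 (adjusted p = 8.3e-07). IFITM3 was 222 ± 30.9 with control siRNA, 154 ± 14.4 after PKR siRNA 1 and 279 ± 14.2 after PKR siRNA 2. Each was under 1.5-fold from the control (-0.52 ± 0.09 and 0.34 ± 0.09), and the siRNAs differed by 0.86 ± 0.09 (adjusted p = 3.68e-13). Without control replicate 2 the value after PKR siRNA 1 was -0.64 and called.

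OAS3 and OASL belong to the family that makes the oligoadenylates by which RNase L is activated, although OASL has lost the enzyme activity and acts on RIG-I. With C16 OAS3 rose, while OASL had its highest counts in DMSO. OAS3 had 49.6, 52.4 and 62.4 normalized counts in DMSO, 70.2, 84.2 and 100 at 400 nM and 88.8, 85.3 and 106 at 800 nM. All treated libraries lay above DMSO, and the doses overlapped. OAS3 was 1.53 times DMSO at 400 nM (0.61 ± 0.14, adjusted p = 0.000766) and 1.69 times at 800 nM (0.76 ± 0.14, adjusted p = 1.5e-05). The value at 400 nM went under 1.5-fold without DMSO replicate 1 (0.55) or replicate 2 (0.58), without 400 nM replicate 3 (0.49) and with a pseudocount of 5 (0.58). OASL had 15.5, 28.6 and 20.6 in DMSO, 8.51, 6.92 and 4.26 at 400 nM and 0, 4.87 and 0.954 at 800 nM. The 400 nM libraries lay below all DMSO libraries, and at 800 nM 1 library had no read. As OASL passed the minimum here only through the DMSO libraries, its tests against DMSO are no evidence of a fall. Its log2 fold change was -1.58 ± 0.47 at 400 nM (adjusted p = 0.00868) and -3.28 ± 0.47 at 800 nM (adjusted p = 4.99e-08); the second was -1.97 with a pseudocount of 5 and -3.77 with 0.5. The call at 400 nM was lost without DMSO replicate 2 (-1.36) or 400 nM replicate 3 (-1.34). The difference between doses (-1.70 ± 0.47, adjusted p = 0.00932), in which the groups overlapped, was lost without 400 nM replicate 1 (-1.52) or 800 nM replicate 1 (-1.12), with edgeR (adjusted p = 0.0511) and with DESeq2 (adjusted p = 0.182).

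With the siRNAs OAS3 was lower rather than higher. It had 122, 149 and 107 normalized counts with control siRNA, 82.2, 86.2 and 79.1 after PKR siRNA 1 and 67.6, 70.8 and 62.1 after PKR siRNA 2. The groups did not overlap. OAS3 was 0.537 times the control after PKR siRNA 2 (-0.90 ± 0.13, adjusted p = 1.05e-08) and 0.662 times after PKR siRNA 1 (-0.60 ± 0.13, adjusted p = 8.26e-05). The second was only just past 1.5-fold and went under it without control replicate 2 (-0.47), without PKR siRNA 1 replicate 3 (-0.57), with a pseudocount of 5 (-0.57) and after median-of-ratios rescaling (-0.58). The siRNAs differed from each other by less than 1.5-fold (-0.30 ± 0.13). OASL, too low to judge here, had 4.11, 3.22 and 3.79 with control siRNA, 4.44, 5.44 and 2.89 after PKR siRNA 1 and 16.9, 12.9 and 6.58 after PKR siRNA 2.

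**Figure D5:**
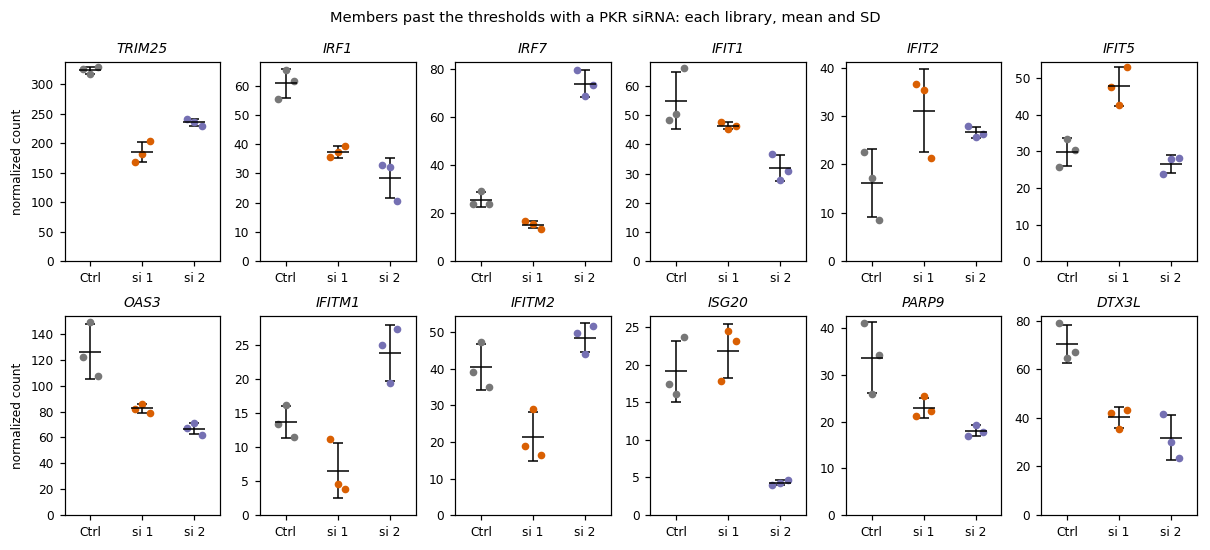
Normalized counts of each library (points) for the 12 members called after PKR siRNA 1 or PKR siRNA 2 against control siRNA, with the mean and SD of the 3 libraries (bars) and a vertical axis from 0 in each panel. IRF7, IFITM1 and IFITM2 have lower means after PKR siRNA 1 and higher means after PKR siRNA 2 than with control siRNA, and ISG20 is low after PKR siRNA 2 alone, at 3.98 to 4.70.

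Of the remaining effectors, IFI6, a mitochondrial and endoplasmic reticulum protein that limits flavivirus replication, fell with both doses of C16. It had 31.1, 20.0 and 25.9 normalized counts in DMSO, 19.1, 9.23 and 9.57 at 400 nM and 14.1, 6.09 and 12.4 at 800 nM. Replicate 1 at 400 nM was just below the lowest DMSO library. The value was -1.02 ± 0.32 at 400 nM (adjusted p = 0.0115) and -1.22 ± 0.32 at 800 nM (adjusted p = 0.00117). The first was lost without DMSO replicate 1 (-0.87), without 400 nM replicate 2 (-0.85) or replicate 3 (-0.87), and with DESeq2 (adjusted p = 0.0622). In the siRNA table IFI6 was not called, at 10.4 ± 3.06, 11.9 ± 3.86 and 13.9 ± 3.10 in the control and after PKR siRNA 1 and then PKR siRNA 2.

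IFI35, a partner of NMI that modulates sensor signalling, had 35.9, 42.9 and 36.5 normalized counts in DMSO, 40.4, 26.5 and 30.9 at 400 nM and 17.1, 14.6 and 21.0 at 800 nM. The 800 nM libraries lay below both other groups, which overlapped. It was 0.468 times DMSO at 800 nM (-1.10 ± 0.22, adjusted p = 4.74e-05) and lower than at 400 nM, at -0.85 ± 0.22 (adjusted p = 0.00574), a difference not called without 400 nM replicate 1 (-0.69) or with DESeq2 (adjusted p = 0.0982). With the siRNAs its intervals lay within 1.5-fold of the control, at -0.49 to 0.23 and -0.40 to 0.33. SAMD9, which restricts poxviruses, had 9.72, 10.5 and 13.7 in DMSO, 13.8, 16.1 and 21.3 at 400 nM and 6.05, 4.87 and 3.82 at 800 nM. The 400 nM libraries were the highest and the 800 nM libraries the lowest, without overlap. SAMD9 fell at 800 nM against DMSO (-1.06 ± 0.35, adjusted p = 0.0111) and against 400 nM (-1.61 ± 0.35, adjusted p = 0.000845), and the difference at 400 nM did not pass (0.55 ± 0.35, adjusted p = 0.258). The fall against DMSO was lost without DMSO replicate 3 (-0.92) and with DESeq2 (adjusted p = 0.0724). With the siRNAs SAMD9 was not called, but PKR siRNA 1 replicate 1, at 4.44, was far below its replicates, at 17.2 and 14.5.

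ISG20, an exonuclease that degrades RNA, fell after PKR siRNA 2. It had 17.5, 16.1 and 23.7 normalized counts with control siRNA, 17.8, 24.5 and 23.2 after PKR siRNA 1 and 3.98, 4.29 and 4.70 after PKR siRNA 2. Control and PKR siRNA 1 overlapped, and PKR siRNA 2 lay far below both with little spread. It was 0.268 times the control after PKR siRNA 2 (-1.90 ± 0.32, adjusted p = 5.68e-07) and differed between the siRNAs by -2.09 ± 0.32 (adjusted p = 3.75e-08). In the C16 table, where it was too low to judge, ISG20 had 0.972, 4.76 and 6.09 in DMSO, 9.57, 6.92 and 8.51 at 400 nM and 7.06, 15.8 and 14.3 at 800 nM.

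Among the genes of ISG15 and ADP-ribose modification, DTX3L fell with both siRNAs and PARP9 after PKR siRNA 2, and none was called with C16. The complex of PARP9 and the ubiquitin ligase DTX3L ubiquitinates host and viral proteins, and the genes share a promoter region on chromosome 3. DTX3L had 79.1, 64.5 and 67.3 normalized counts with control siRNA, 42.2, 35.4 and 43.4 after PKR siRNA 1 and 41.8, 30 and 23.5 after PKR siRNA 2. Both siRNAs lay below the control and overlapped each other. It was 0.580 times the control after PKR siRNA 1 (-0.79 ± 0.18, adjusted p = 0.000231) and 0.450 times after PKR siRNA 2 (-1.15 ± 0.18, adjusted p = 1.38e-07). PARP9 had 41.1, 25.8 and 34.1 with control siRNA, 21.1, 25.4 and 22.2 after PKR siRNA 1 and 16.9, 19.3 and 17.9 after PKR siRNA 2. It lay below the control in all 6 PKR siRNA libraries and passed after PKR siRNA 2 (-0.84 ± 0.24, adjusted p = 0.00209) but not after PKR siRNA 1 (-0.52 ± 0.24, adjusted p = 0.0673). The exons of the genes share 185 bases on opposite strands, 2.32% of PARP9 and 3.21% of DTX3L. PARP14, a further ADP-ribosyltransferase whose gene lies 105623 bases from DTX3L, was 105 ± 11.5 with control siRNA. It was 76.0 ± 6.58 after PKR siRNA 1 and 73.5 ± 13.4 after PKR siRNA 2. Both differences were under 1.5-fold (-0.46 ± 0.13 and -0.52 ± 0.13), with adjusted p = 0.00344 and 0.000856. With C16 these genes were not called: at 800 nM the values were -0.46 ± 0.24 for PARP9, -0.20 ± 0.22 for DTX3L and -0.48 ± 0.15 for PARP14.

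ISG15 was called against no control. Its mean was 37.2 ± 7.37 in DMSO, 43.0 ± 2.68 at 400 nM and 31.5 ± 9.80 at 800 nM, where replicate 2, at 42.7, lay above its replicates at 24.2 and 27.7. With the siRNAs it was 39.4 ± 3.74 in the control, 51.6 ± 5.32 after PKR siRNA 1 and 29.4 ± 6.28 after PKR siRNA 2, and the siRNAs differed by -0.80 ± 0.19 (adjusted p = 0.000186). USP18, which removes ISG15 and restrains the interferon receptor, was 15.2 ± 2.12 in DMSO and 11.6 ± 2.27 at 800 nM and was not called. In the siRNA table, where its mean was just under the minimum, USP18 had 15.4, 16.1 and 14.2 with control siRNA, 7.78, 3.63 and 0.965 after PKR siRNA 1 and 10.9, 5.36 and 12.2 after PKR siRNA 2, with each PKR siRNA library below the control.

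In all 6 comparisons the 95% intervals of ADAR and ZC3HAV1 lay within 1.5-fold. ADAR was 321 ± 11.0 in DMSO, 329.9 ± 17.8 at 400 nM and 299.6 ± 26.5 at 800 nM, and 662 ± 23.5, 489.7 ± 21.5 and 562 ± 23.9 in the control and after PKR siRNA 1 and then PKR siRNA 2. The small difference of ADAR from the control after PKR siRNA 1 still exceeded the spread of the libraries (-0.43 ± 0.06, adjusted p = 1.12e-08). ZC3HAV1, the zinc finger protein that targets CpG-rich viral RNA, was 109 ± 14.7 in DMSO and 104 ± 4.49 at 800 nM, and 176 ± 24.0 with control siRNA and 169.6 ± 8.13 after PKR siRNA 2. Among tested members that were not called, the interval lay within 1.5-fold for 6 after PKR siRNA 1, 8 after PKR siRNA 2, 5 with 400 nM C16 and 3 with 800 nM C16. For the others (12, 11, 15 and 9) it reached past 1.5-fold, and a change of that size could be neither shown nor dismissed at this depth.

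The siRNAs differed from each other in 12 members, and in all 12 the fitted changes from the control had opposite signs. So did 2374 of the 3362 genes that differed between the siRNAs overall (70.6%), and choosing genes for such a difference favours opposite signs. Members higher after PKR siRNA 2 were DDX58, MAVS, IRF7, IRF9, IFITM1, IFITM2 and IFITM3, and those lower were IFIH1, IFIT3, IFIT5, ISG20 and ISG15. Members called lower with both siRNAs were IRF1, OAS3 and DTX3L, and IFIT2 was called higher with both. Both comparisons share the control libraries, and the share of all genes called alike with both siRNAs is not given here. Both IFIT2 calls were lost without control replicate 3. The OAS3 call after PKR siRNA 1 was only just past 1.5-fold and was lost under some settings. EIF2AK2 itself did not pass between the siRNAs, at -0.31 on the log2 scale with a 95% interval of -0.80 to 0.18. With 3 libraries against 3, the exact two-sided permutation test of single members cannot give a p under 0.1. It gave that value for each member called against a control except IFIT2 after PKR siRNA 1 (exact p = 0.2).

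Read against the promoter sequences above, 7 of 13 tested members with an ISRE core were lower with 800 nM C16 and 1 was higher, compared with 2 lower and 1 higher among 9 without the core. The median log2 fold change was -0.77 with the core and -0.27 without. After PKR siRNA 2, 5 of 14 members with the core were lower and 1 of 9 without, and after PKR siRNA 1 the counts were 3 of 14 and 2 of 9. With 400 nM C16, 3 of 13 members with the core were lower and none of the 9 without, where 2 were higher. Among all genes whose promoter was matched by symbol, 32 of 199 with the core were lower with 800 nM C16 (16.1%) and 13.7% of those without it. These shares were 14.6% and 12.7% after PKR siRNA 2, 15.5% and 12.3% after PKR siRNA 1, and with 400 nM C16 4.02% and 5.27%. The counts over members are descriptions of few genes and no result about the core, and members whose promoter was not matched are left out. OAS3, with cores 143 and 12 bases before its RefSeq start, rose with C16. IFITM1, with cores 40 and 6 bases before its RefSeq start, fell.

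Of 15 genes for interferons and their receptors, 10 were too low to judge in each table. For the counts below, 12.6% of all genes tested were lower and 8.53% higher after PKR siRNA 1. These shares were 12.8% and 10.8% after PKR siRNA 2, 5.45% and 7.08% with 400 nM C16, and 14.1% and 11.6% with 800 nM C16. Where 5 or fewer genes of a list were called, those outside the naming rule are given too and were chosen after their values were seen. After PKR siRNA 1, 2 of the 5 tested were lower, the receptor chains IFNAR1 at -0.79 ± 0.14 (adjusted p = 2.2e-06) and IFNGR2 at -0.79 ± 0.12 (adjusted p = 1.32e-07). After PKR siRNA 2, IFNGR2 was lower at -0.87 ± 0.12 (adjusted p = 8.83e-09) and IL10RB, a chain of the interferon lambda receptor, was higher at 0.66 ± 0.17 (adjusted p = 0.00104). With C16, 0 were called at either dose against DMSO with limma, edgeR or DESeq2, and 0 had an unadjusted p under 0.05. Among JAK-STAT genes and their inhibitors, the phosphatase PTPN6 was lower after PKR siRNA 1 at -1.72 ± 0.33 (adjusted p = 9.77e-06). After PKR siRNA 2, 1 of 8 tested was higher, the STAT inhibitor PIAS1 at 0.97 ± 0.15 (adjusted p = 1.52e-07), and 1 lower, PTPN6 at -1.01 ± 0.33 (adjusted p = 0.00871). With 800 nM C16, 1 of 7 was higher, the kinase JAK1 at 0.74 ± 0.08 (adjusted p = 9.29e-12), and 2 were lower, PTPN6 at -1.57 ± 0.34 (adjusted p = 0.000127) and PIAS1 at -0.96 ± 0.20 (adjusted p = 8.17e-05). At 400 nM 1 was lower, PIAS1 at -0.62 ± 0.20 (adjusted p = 0.0156).

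The shares of all genes were as above, at 12.6% lower and 8.53% higher after PKR siRNA 1 and 12.8% and 10.8% after PKR siRNA 2. With 400 nM C16 they were 5.45% and 7.08%, and with 800 nM 14.1% and 11.6%. Of 12 tested adaptors and kinases of innate sensing, not all of them below the RNA sensors, 1 was lower after PKR siRNA 1. It was the RIG-I ubiquitin ligase RNF135 at -0.74 ± 0.15 (adjusted p = 3.75e-05). After PKR siRNA 2, RNF135 was higher at 0.64 ± 0.15 (adjusted p = 0.000338) and 3 genes were lower, TRAF3 at -0.79 ± 0.10 (adjusted p = 3.31e-10), the kinase IKBKE at -1.59 ± 0.34 (adjusted p = 7.39e-05) and TICAM1, the adaptor of TLR3, at -1.39 ± 0.25 (adjusted p = 2.39e-06). With 800 nM C16, 1 of 10 was lower, MYD88 at -0.61 ± 0.18 (adjusted p = 0.00436). With 400 nM, 0 were called with limma, edgeR or DESeq2, and 1 higher and 2 lower had an unadjusted p under 0.05. Of 8 other proteins that bind double-stranded RNA, 1 was higher after PKR siRNA 2, the editing enzyme ADARB1 at 1.13 ± 0.21 (adjusted p = 4.5e-06), and 1 was higher with 800 nM C16, the PKR activator PRKRA at 0.61 ± 0.16 (adjusted p = 0.00103). None was called after PKR siRNA 1 or 400 nM C16 with any of the 3 tools, where 1 higher and 6 lower, and 0 higher and 3 lower, had an unadjusted p under 0.05.

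Among all genes tested, 12.6% were lower and 8.53% higher after PKR siRNA 1, 5.45% and 7.08% with 400 nM C16, and 14.1% and 11.6% with 800 nM C16. Of 50 further interferon-stimulated genes, 25 were tested in each table. After PKR siRNA 1, 2 were higher, TRIM14 at 1.05 ± 0.23 (adjusted p = 8.2e-05) and TDRD7 at 0.93 ± 0.21 (adjusted p = 0.000198), and 6 were lower, among them the helicase-like gene DDX60L at -1.13 ± 0.34 (adjusted p = 0.00397). After PKR siRNA 2, 10 were lower and 3 higher, where 12.8% of all genes were lower and 10.8% higher. The higher genes were PLSCR1 at 0.65 ± 0.14 (adjusted p = 7.25e-05), RNF213 at 0.84 ± 0.06 (adjusted p = 3.33e-20) and UNC93B1, the transporter of endosomal Toll-like receptors, at 0.99 ± 0.15 (adjusted p = 6.32e-08). The lower genes included the nuclear body gene SP100 at -1.26 ± 0.18 (adjusted p = 6.07e-09). With 400 nM C16, 1 was higher, the phospholipid scramblase PLSCR1 at 0.68 ± 0.20 (adjusted p = 0.00633), and 1 was lower, UNC93B1 at -1.23 ± 0.23 (adjusted p = 2.94e-05). With 800 nM, 2 were higher, PLSCR1 at 0.80 ± 0.20 (adjusted p = 0.000658) and the nucleotidase NT5C3A at 0.70 ± 0.19 (adjusted p = 0.0016). At that dose 5 were lower, IRF2 at -0.93 ± 0.28 (adjusted p = 0.00511), LGALS3BP at -0.90 ± 0.11 (adjusted p = 6.78e-10), RNF213 at -0.75 ± 0.09 (adjusted p = 2.96e-10), UNC93B1 at -1.79 ± 0.23 (adjusted p = 3.42e-09) and PARP10 at -1.03 ± 0.28 (adjusted p = 0.00168). The median log2 fold change of these 25 genes was -0.14 after PKR siRNA 1, -0.38 after PKR siRNA 2, 0.02 with 400 nM and -0.21 with 800 nM.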

How the data were processed

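RNA from PANC-1 cells was sequenced in 18 libraries, 3 in each of 6 groups assigned from the sample titles. Per the methods of the study, total RNA was extracted with TRIzol, poly(A) RNA was made into directional libraries and read as paired ends on a MiSeq, and reads were aligned with TopHat to hg38, counted with featureCounts and normalized with TMM in TCC. The deposited values are thus a signal of normalized read counts per gene, in separate tables for the siRNA and C16 libraries, which the authors did not log-transform. The annotation and the strand setting of the counting are not given in the sources used here. The methods name 800 nM C16, and the 400 nM dose is taken from the labels. No columns of the authors' own comparisons were used.

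Within a library 100% of the values were whole multiples of 1 step (tolerance 0.01 of a read), so that reads were recovered. Recovered reads on genes ranged from 1512940 to 1873906 in the siRNA table and from 894145 to 1474308 in the C16 table, and the counting error at these depths limits low genes. No value column was left unassigned. In all 18 pairs of replicates the counts differed beyond sampling noise (chi-square per degree of freedom 1.03 to 1.63).

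Values were tested as log2 (value + 1) with limma 3.58.1 (R 4.3.3; lmFit, then eBayes with a trend), with the 9 libraries of a table in 1 fit, over genes with a mean of at least 10. P-values were two-sided and adjusted by Benjamini-Hochberg over all genes tested. A call required an adjusted p under 0.05 and a fold change over 1.5, and intervals are at 95%. The scripts were tested on simulated data. As alternatives, edgeR 4.0.16 (quasi-likelihood) and DESeq2 1.42.0 were run on the recovered reads, and pseudocounts, filters, scaling, the groups in the fit, a replicate block and each library were varied. edgeR called 955 genes higher and 1310 lower after PKR siRNA 1, 1244 and 1313 after PKR siRNA 2, 697 and 620 with 400 nM C16, and 1229 and 1425 with 800 nM C16. Between the siRNAs it called 1787 higher and 1622 lower, and between the doses 136 and 321. Levels between genes were compared scaled to the reads on genes and the length of exons. Promoters came from RefSeq (GRCh38.p14).

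The members and the lists were chosen with earlier results of these data known. Every member is named. Library values are given for members called in at least 1 of the 4 comparisons with a control and for some members near or under the minimum, the others by group means. From the other lists, the 3 largest rises and the 3 largest falls among called genes whose groups did not overlap are named for each of those comparisons, apart from results that are not reported here.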

Additional observations from a re-analysis of the deposited data

Results flagged for a closer look

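For 5 members the test between the siRNAs was passed, the fitted changes from the control had opposite signs, and at least 1 of those changes was itself called. Choosing genes for a difference between the siRNAs favours opposite signs, which 70.6% of all genes that differed had. The share of all genes that meet every condition is not given here. IRF7 differed by 2.21 on the log2 scale (-0.71 after PKR siRNA 1 and 1.5 after PKR siRNA 2). IFITM1 differed by 1.84 (-1.07 and 0.76) and IFITM2 by 1.18 (-0.92 and 0.26). In ISG20 PKR siRNA 2 was lower than PKR siRNA 1 at -2.09 (0.19 and -1.90), and in IFIT5 at -0.82 (0.67 and -0.15). EIF2AK2, the target of both siRNAs, was at 11.1 ± 2.19 normalized counts after PKR siRNA 1 and 8.65 ± 0.726 after PKR siRNA 2 (mean ± SD, n = 3), and its part in these differences was not tested.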

How the results depend on the processing

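Of 41 calls of members against a control, 28 were made under every alternative in which the member was tested (16 of the 41 were on members that a minimum mean of 30 left out), 11 were lost when a library was left out, 9 under another setting and 7 with DESeq2. No call reversed its direction. The 41 include OASL at both C16 doses and IRF7 at 800 nM, for which the filter had built in a difference from DMSO. Both calls at 800 nM are among the 28. The share of calls kept over all genes is not given here. No setting moved the median of all genes by over 0.1 on the log2 scale. The replicate numbers did not pair the libraries (correlations of same-numbered libraries of -0.0269 to 0.0324 among siRNA and -0.0491 to 0.0169 among C16 libraries), and the replicate block left every count of members as it was, for example 14 lower with 800 nM C16 and 7 lower after PKR siRNA 1. With a minimum mean of 30, 18 members of the siRNA table and 15 of the C16 table were left. Then 1 was higher after PKR siRNA 1 (5.56%, against 7.63% of all genes) and 1 after PKR siRNA 2 (5.56%, against 9.38%). Between the siRNAs 2 were lower (11.1%, against 14.6%). With 400 nM C16 2 were lower (13.3%, against 4.18%), with 800 nM 6 (40%, against 11.3%) and between the doses 3 (20%, against 3.26%). With no minimum fold change, 11 of 27 were lower after PKR siRNA 1, where 2530 of all 10593 genes were. Under that setting 4 were higher after PKR siRNA 2, where 2344 of all genes were. Between the siRNAs 8 were lower, where 3104 of all genes were. DESeq2 called 1 higher after PKR siRNA 2 (3.7%, against 9.94% of all genes) and 4 lower between the doses (14.3%, against 1.47%). A pseudocount of 5 left 1 of 28 higher with 400 nM C16 (611 of all 9963 genes). Without the filter on low values, 4 of 37 were higher after PKR siRNA 2 (1366 of 18230 genes). The causes were not tested, apart from the smaller number of genes under the higher minimum.

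Leaving out each library in turn gave 1 to 2 members higher and 7 to 9 lower after PKR siRNA 1, 1 to 3 and 6 to 8 after PKR siRNA 2, and 6 to 7 and 4 to 6 between the siRNAs. It gave 1 to 3 higher and 4 to 7 lower with 400 nM C16, 2 to 2 and 13 to 14 with 800 nM C16, and 0 to 0 and 4 to 8 between the doses. The lowest counts came without control siRNA replicate 1 or replicate 3 (1 higher after PKR siRNA 1), without control siRNA replicate 3 (1 higher after PKR siRNA 2), without DMSO replicate 1 or replicate 2 (1 higher with 400 nM C16) and without 400 nM replicate 1 (4 lower between the doses). Of all 10593 genes tested, leaving out a library gave 839 to 890 higher and 1286 to 1361 lower after PKR siRNA 1. After PKR siRNA 2 the ranges were 1102 to 1139 and 1307 to 1354, and between the siRNAs 1669 to 1736 and 1550 to 1631. Of all 9963 genes tested with C16 they were 647 to 711 and 448 to 577 at 400 nM. At 800 nM they were 1108 to 1162 and 1291 to 1386, and between the doses 84 to 141 and 298 to 382. Members under the minimum were called against a control only without the filter, and rest on few reads. They were USP18 after PKR siRNA 1 (-1.91), OAS2 (1.46) and OASL (1.40) after PKR siRNA 2, OAS2 (-1.77) and XAF1 (-1.39) with 400 nM C16, and BST2 (-1.90), DHX58 (-1.86), ISG20 (1.56), OAS2 (-1.40) and XAF1 (-1.37) with 800 nM C16.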
